A study of Mus musculus with 3 samples.

Results

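The control transcriptome of mouse embryonic stem (ES) cells was described from 1 RNA-Seq library, the one labelled as transduced with control shRNA, out of 3 libraries in the series. It was chosen by that label alone. All 24421 genes of its count table were sorted by their reads. Genes with 0 reads were termed silent, genes with 1 to 9 reads low, genes from 10 reads up to 100 CPM moderate, and genes at 100 CPM or more abundant, where CPM is the number of reads per 1000000 reads on genes. The series was made to study NUP153, a protein of the nuclear pore, and its other libraries come from NUP153 knockdown cells, which are used here only for a check of the labels by Nup153. The cells were EL 16.7, a female ES cell line of strain F2:129S1/CastEiJx 129S1 and wild type genotype. They received lentivirus with a scramble shRNA, were plated for 24 h, were selected for 2 days in puromycin at 2 μg/ml and grew in medium with 20% FBS and LIF. They grew on γ-irradiated embryonic fibroblasts (MEFs) of Tg(DR4)1Jae/J mice, known as feeders. No step that removed the feeders before RNA extraction is given in the sources used here, so RNA of both cell types may be in the library, which limits it as a model of ES cells alone. This condition had 1 library, so values have no replicate error, and the intervals given, all on reads, are exact and cover counting error only.

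ES cells come from the inner cell mass of the blastocyst and keep the ability to form all tissues of the embryo. A small circuit of transcription factors around POU5F1, SOX2 and NANOG maintains this state, and LIF supports it by way of STAT3. Genes for translation, protein folding and energy supply are used in all dividing cells and yield much of the RNA of any culture. Receptors of smell, proteins of hair and hormones of single glands are made in a few specialised cell types. Genes of the first kind often start in stretches rich in the CG dinucleotide, which is rare in the rest of the mouse genome.

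The library held 72344726 reads on genes, or 76.5% of the 94557050 reads in the table, and 1 CPM was 72.3 reads. For genes with 0 reads a fixed limit of 3 reads, or 0.0415 CPM, is given, while the upper end of the exact Poisson interval of 0 reads is 3.69 reads. Nup153 itself had 27870 reads (385 CPM) in this library, against 193 CPM and 159 CPM in the libraries labelled KD-1 and KD-2, which serves here as a check of the labels. The abundant class held 2142 genes, 8.77% of the table, and took 74.4% of the reads. The moderate class held 14217 genes, or 58.2%, and took 25.6% of the reads. The low class held 3457 genes, or 14.2%, and all of them together took 12300 reads, or 0.0170%. The silent class held 4605 genes, or 18.9%.

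The moderate class was wide. It covered 3362 genes under 1 CPM, 4608 genes from 1 to 10 CPM and 6247 genes from 10 to 100 CPM, and the last of these took 23.5% of all reads. Near the limits the classes ran into each other. Shprh, with 7242 reads (100.1 CPM), was the abundant gene with fewest reads and Tma16, with 7233 reads (99.98 CPM), the moderate gene with most. There were 172 genes with 9 reads and 150 genes with 10 reads, and the exact Poisson interval of 10 reads runs from 4.80 to 18.4 reads.

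Reads were concentrated in few genes. Eef1a1, the elongation factor that brings tRNAs to the ribosome, had the most, with 1034757 reads or 1.43% of the library. The 10 highest genes took 6.42%, the 100 highest took 22.9%, 626 genes took 50% and 4657 genes took 90%. Rn45s, the precursor of ribosomal RNA, had 583027 reads in this library although ribosomal RNA had been depleted, and Malat1, a nuclear noncoding RNA, had 533456. Next came the chaperones Hsp90aa1 (437594 reads) and Hspa8 (361324 reads), the nucleolar protein gene Npm1 (435276 reads) and Ptma (341175 reads), which encodes prothymosin. Spp1, which encodes the secreted protein osteopontin, was the eighth with 328787 reads. Rmrp (300662 reads) and Rpph1 (290657 reads), the RNA parts of the enzymes RNase MRP and RNase P, followed it. The ranks from the eleventh to the twentieth went to 6 genes of the ribosome (Rps4x, Rplp0, Rpsa, Rpl10, Rpl4 and Rpl3), to Ncl, which encodes nucleolin, to the actins Actb and Actg1 and to the helicase gene Eif4a1, with 192632 to 251936 reads each.

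Levels of different genes were compared per length, as RPKM, the CPM per 1000 bases of exon. By this measure, among genes with at least 200 bases of exon, the order changed. Rmrp stood first with 14790 RPKM and Rpph1 second with 12595 RPKM and Eef1a1 next with 7973 RPKM. The annotated exons of Rmrp and Rpph1 are short, at 281 and 319 bases, and 95.7% and 68.1% of their 50-base windows occur in other annotated genes. Of the 20 genes with the highest RPKM, 13 were genes of ribosomal proteins, led by Rps29 with 4262 RPKM. Malat1 was at 1056 RPKM and Ncl, with 8202 bases of annotated exon, at 387 RPKM.

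The promoters of 3 genes show how the ends of this range differ in sequence. They are Eef1a1 as the gene with most reads, Pou5f1 as a gene of the ES cell state, and Olfr1145 as the first gene of the longest run of silent genes. Each sequence is RefSeq's, in build GRCm38.p6, from 250 bases before the start to 50 bases after it, with CG dinucleotides in capitals. The Eef1a1 promoter is at chr9:78481675-78481974 on the minus strand, that of Pou5f1 at chr17:35505782-35506081 on the plus strand and that of Olfr1145 at chr2:87809572-87809871 on the plus strand.
Eef1a1: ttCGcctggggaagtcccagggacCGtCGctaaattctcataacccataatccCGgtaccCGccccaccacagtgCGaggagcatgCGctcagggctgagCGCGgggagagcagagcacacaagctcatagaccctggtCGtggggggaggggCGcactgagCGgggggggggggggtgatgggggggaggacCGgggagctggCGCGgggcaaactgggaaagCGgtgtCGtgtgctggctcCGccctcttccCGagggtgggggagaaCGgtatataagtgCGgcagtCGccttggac
Pou5f1: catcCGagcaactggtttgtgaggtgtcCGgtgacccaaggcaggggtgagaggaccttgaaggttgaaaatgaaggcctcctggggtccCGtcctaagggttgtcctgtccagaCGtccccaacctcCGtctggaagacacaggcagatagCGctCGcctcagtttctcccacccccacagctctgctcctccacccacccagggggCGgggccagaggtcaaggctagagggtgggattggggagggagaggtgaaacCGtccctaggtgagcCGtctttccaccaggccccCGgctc
Olfr1145: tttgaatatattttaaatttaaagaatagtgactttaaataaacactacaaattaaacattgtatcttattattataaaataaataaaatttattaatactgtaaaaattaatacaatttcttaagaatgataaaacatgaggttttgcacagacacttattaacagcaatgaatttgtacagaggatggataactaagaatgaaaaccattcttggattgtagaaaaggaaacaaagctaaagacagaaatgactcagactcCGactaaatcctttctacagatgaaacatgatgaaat
The Eef1a1 promoter holds 22 CG dinucleotides, that of Pou5f1 11 and that of Olfr1145 1.

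Over the 16453 protein-coding genes with a promoter in the table, the median number of CG dinucleotides was 24 in the abundant class, 19 in the moderate, 4 in the low and 2 in the silent class. A count of 10 or more was found at 91.1% of abundant, 74.7% of moderate, 23.2% of low and 6.38% of silent promoters. Leaving out the sensory receptors, which make up many silent genes, the silent median was 3 and the share with 10 or more was 10.9%. The letters TATAAA, searched on both strands of the 300 bases, were found at 31.8% of silent, 18.6% of low, 8.25% of moderate and 7.51% of abundant protein-coding promoters, and at 13.02% of all 18115 promoters. Of the genes of ribosomal proteins, 95.3% of 64 promoters held 10 or more CG dinucleotides, whereas 0.213% of 939 promoters of olfactory receptors did. Among the promoters of keratin-associated proteins, 81.3% of 48 held TATAAA on either strand. On the sense strand between 40 and 15 bases before the start, 58.3% of them held it, against 2.77% of all promoters. These matches describe letters and were not tested as sites. Gene structure differed along with the class. The median exon length of protein-coding genes was 3428 bases in the abundant and 1822.5 bases in the silent class, the median number of exons was 11 and 3, and single-exon genes made up 0.810% and 16.3%. A long gene yields more fragments at the same level, and length thus enters into the classes, which rest on reads.

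All 18 transcription factors of the pluripotency list were above the low class, 6 of them abundant, and together they took 3521 CPM (95% interval 3508 to 3535). Their median was 17.8 RPKM, against 1.11 RPKM over all protein-coding genes. Zfp42, also known as Rex1 and a marker of the naive state, was the highest with 82732 reads (608 RPKM). Pou5f1, which encodes OCT4, had 35405 reads (359 RPKM), Nanog had 44622 (275 RPKM) and Sox2 had 27360 (184 RPKM). Klf4 with 11691 reads (53.4 RPKM) and Tfcp2l1 with 10104 reads (15.1 RPKM) completed the abundant ones. Esrrb, a nuclear receptor of the naive circuit, stood just under the limit with 7005 reads (17.2 RPKM). The list spread over a wide range, and its lowest members were Utf1 with 127 reads (1.43 RPKM), Gbx2 with 251 (1.63 RPKM) and Klf5 with 655 (1.74 RPKM). Nr0b1, Mycn, Klf2, Sall4, Prdm14, Nr5a2 and Tbx3 lay between 11.4 and 40.7 RPKM.

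Other genes known from ES cells were higher still, with 15 of 21 abundant, 6 moderate, and a median of 89.9 RPKM. Spp1 led with 2758 RPKM, followed by Dppa5a, which encodes an RNA-binding protein of pluripotent cells, with 74575 reads (1665 RPKM). Trap1a had 34418 reads (404 RPKM), Fbxo15, a target of POU5F1 and SOX2, had 37810 (255 RPKM), and L1td1 had 56027 (247 RPKM). Tdh, the threonine dehydrogenase that mouse ES cells need, had 25660 reads (189 RPKM). Lin28a, which blocks the maturation of let-7, had 11118 reads (43.8 RPKM) and Cdh1, which encodes E-cadherin, had 16935 (52.8 RPKM). At the lower end of the list were Alpl, the alkaline phosphatase used to stain ES colonies, with 2883 reads (15.8 RPKM), and Fut9 with 3333 reads (3.77 RPKM). Of the 12 defining markers of ES cells, 10 were abundant and 2, Esrrb and Utf1, moderate, so the defining markers of the labelled cell type were present.

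Genes of the formative and primed states were lower than the ES cell lists, with a median of 1.16 RPKM over 13 genes. The median over all protein-coding genes was 1.11 RPKM. Fgf5, the classical marker of the epiblast after implantation, had 16 reads (0.0884 RPKM), Pou3f1 had 44 reads (0.158 RPKM) and Sox3 had 11 reads (0.0736 RPKM). The list did not lie at one level. The de novo DNA methyltransferase gene Dnmt3b had 9221 reads (29.5 RPKM) and was its only abundant member, while Zic2 had 2445 reads (13.9 RPKM) and Otx2 2546 (11.7 RPKM). Genes of the 2-cell-like state, in which a few cells of an ES culture use genes of the early embryo, had a median of 0.204 RPKM over 12 genes with a length. Zscan4c had 53 reads, Zscan4d 35, Zfp352 23 and Tcstv1 0. Of the 50-base windows of Zscan4c 85.5% occur in other genes, and of those of Zscan4d 49.6%. The exception was Eif1a, an initiation factor used widely, with 33779 reads (112 RPKM).

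Of 17 genes of the LIF pathway 4 were abundant and 13 moderate, and levels differed within each role. The receptor genes Il6st (13956 reads, 17.6 RPKM) and Lifr (8934 reads, 11.9 RPKM) were abundant, while the receptor gene Il6ra was at 0.995 RPKM. The kinase gene Jak1 was at 26.4 RPKM, Stat3, the factor that LIF activates, at 12.6 RPKM, and Socs3, the feedback inhibitor that STAT3 induces, at 7.60 RPKM. Ptpn11, a phosphatase listed among the inhibitors, was the highest of the list with 27.6 RPKM (11212 reads). The ligand genes ranged from Lif at 1.17 RPKM (343 reads) to Cntf at 0.322 RPKM (25 reads). Every gene of the list had at least 25 reads, and the lowest was Socs1 with 0.195 RPKM.

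Of 18 FGF ligand genes, Fgf4, which ES cells make and which favours the exit from the naive state, was the only abundant one, with 8216 reads (37.5 RPKM). Fgf7 (2145 reads, 9.43 RPKM) and Fgf10 (1106 reads, 3.72 RPKM) came next, and both are ligands known from mesenchyme. Fgf6 had 0 reads and Fgf20, Fgf21 and Fgf22 had 2 to 8. Among the receptors Fgfr2 was at 7.40 RPKM, Fgfr1 at 3.42 RPKM and Fgfr4 at 0.0291 RPKM (7 reads). The inhibitors of the pathway Spred1 (15.4 RPKM), Spry2 (9.57 RPKM), Dusp6 (8.41 RPKM) and Spry4 (5.64 RPKM) were all moderate or abundant.

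The TGF-beta superfamily had its high members around NODAL. Tdgf1, the co-receptor also called Cripto, was at 347 RPKM (48537 reads). The NODAL inhibitors Lefty2 (50702 reads, 283 RPKM) and Lefty1 (13455 reads, 115 RPKM) were above the ligands Gdf3 (14086 reads, 91.6 RPKM) and Nodal (5256 reads, 34.7 RPKM). Bmp4 was at 12.9 RPKM, and Id3 (67.7 RPKM) and Id1 (36.4 RPKM), the targets of BMP signals that restrain neural fate, were higher. Of the SMAD genes, which carry these signals to the nucleus, all 8 were moderate, from Smad4 at 20.0 RPKM to Smad9 at 0.525 RPKM. Gdf1 was at 0 reads. All of its exon lies on exons of Cers1, which was at 0 as well, and the part of this overlap in the counts was not tested.

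In the Wnt pathway Ctnnb1, which encodes beta-catenin, was at 224 RPKM (58740 reads), the kinase gene Csnk1a1 at 35.7 RPKM and Apc, a part of the destruction complex, at 11.9 RPKM. These were its 3 abundant genes of 45. All 12 receptor genes were moderate, led by Fzd5 with 12.6 RPKM and Lrp6 with 9.77 RPKM. The 19 ligand genes together took 2269 reads (31.4 CPM), with Wnt5a at 1369 reads, and 5 of them (Wnt1, Wnt8a, Wnt8b, Wnt9b and Wnt10b) were low with 2 to 8 reads. Axin2, a target gene of the pathway, had 70 reads (0.227 RPKM).

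Genes of embryonic fibroblasts were present at high levels. Of 43 markers 14 were abundant, 28 moderate and 1 low, and together they took 6316 CPM (95% interval 6298 to 6334) with a median of 10.7 RPKM. All 14 defining markers of fibroblasts had at least 112 reads and summed to 2443 CPM, where the 12 defining markers of ES cells summed to 4997 CPM. Per length, the median was 11.1 RPKM for these fibroblast markers and 119 RPKM for these ES cell markers. In a bulk library, fewer cells of a type and less RNA per cell cannot be told apart, and the share of feeder RNA was not estimated. S100a4, also known as fibroblast-specific protein, had 44210 reads (1227 RPKM), with 47.4% of its 50-base windows in other genes too, and Vim, which encodes vimentin and is made by many cell types, had 72731 (458 RPKM). The matrix gene Fn1 had 83181 reads (136 RPKM) and the collagen gene Col3a1 54628 (136 RPKM). Fbln2 was at 57.3 RPKM, Thbs1 at 48.1 RPKM, Sparc at 45.3 RPKM, Bgn at 45.0 RPKM and Postn at 27.5 RPKM. Collagen I, the main fibre of connective tissue, was lower, with Col1a2 at 8.67 RPKM (3355 reads) and Col1a1 at 5.57 RPKM (2391 reads). The surface markers Thy1 and Pdgfrb had 1460 reads (10.7 RPKM) and 2558 reads (6.45 RPKM). The 9 transcription factors of mesenchyme were lower as a group, with a median of 0.668 RPKM. Prrx1 had 3865 reads (5.43 RPKM), Twist1 577 (4.90 RPKM), Twist2 112 (0.488 RPKM) and Tcf21, the only low one, 3 reads. Among chemokines, Cxcl5 (4610 reads), Cxcl12 (3026 reads) and Ccl2 (1502 reads) had the most reads of 39, of which 10 were silent. Per length the order was Cxcl5 (40.5 RPKM), Ccl2 (25.5 RPKM), Ccl7 (10.8 RPKM), Cxcl1 (10.6 RPKM) and Cxcl12 (5.84 RPKM).

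The line is labelled female, and genes of the Y chromosome had reads. Ddx3y had 3662 reads, Eif2s3y 1392, Uty 690, Kdm5d 615, Uba1y 144 and Usp9y 1, while the other 6 of 12 listed genes, Sry among them, had 0. Together they took 89.9 CPM (95% interval 87.7 to 92.1). For 4 of these genes the level per length was compared with that of the partner on the X chromosome. Ddx3y was at 2.25% of the RPKM of Ddx3x, which was at 489 RPKM, and the shares were 3.75% for Eif2s3y with Eif2s3x, 7.23% for Uty with Kdm6a and 2.93% for Kdm5d with Kdm5c. Of the 50-base windows of these 4 Y genes at most 2.49% occur in other genes, a limit set by Kdm5d, while Uba1y shares 48.1%. The source of these reads was not tested. Xist, the RNA that coats the inactive X chromosome, had 4279 reads (3.30 RPKM) and its antisense partner Tsix 1483 (3.37 RPKM). The strand used in counting is not known here, so reads of these overlapping genes cannot be told apart.

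Lists of markers of differentiated lineages had lower medians than the ES cell and fibroblast lists, though many of their members were moderate. Of 16 markers of primitive streak and mesoderm, 11 were moderate, 3 low and 2 silent, and they summed to 21.6 CPM with a median of 0.232 RPKM (0.425 RPKM over those with at least 10 reads). T, which encodes brachyury, had 33 reads, Mixl1 26, Eomes 249 and Mesp1 3, while Nkx2-5 and Myf5 had 0. The highest per length was Foxc1 with 490 reads (1.16 RPKM). Of 16 markers of primitive endoderm and endoderm, 11 were moderate and 5 low, with a median of 0.121 RPKM (0.197 RPKM over those with at least 10 reads). Gata6 had 46 reads, Gata4 22, Sox17 15, Foxa2 4 and Afp 2, and most of the sum of 101 CPM came from Pdgfra (6423 reads), which is on the fibroblast list as well. Of 16 trophoblast markers 11 were moderate, 4 low and 1 silent, and their median was 0.295 RPKM (0.932 RPKM over those with at least 10 reads), with Cdx2 at 6 reads, Elf5 at 2 and Tpbpa at 0, while Bmp4 (12.9 RPKM) and Tfap2c (11.3 RPKM) were the highest and are known from ES cells too. Of 17 neural markers 1 was abundant, 8 moderate, 7 low and 1 silent, and their median was 0.0306 RPKM (0.267 RPKM over those with at least 10 reads), with Sox1 at 8 reads, Neurog2 at 1 and Olig2 at 0. Tubb3, a tubulin of neurons, and Nes, an intermediate filament of neural progenitors, went against their list with 11814 reads (87.4 RPKM) and 5304 reads.

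Of 16 germ cell genes 15 were moderate and 1 was low, with a median of 1.55 RPKM. Dazl (881 reads), Ddx4 (744 reads) and Sycp3 (368 reads), a part of the meiotic chromosome axis, were at 3.41 to 4.02 RPKM, and Kit was at 7.80 RPKM. Of the Sycp3 exon 52.2% lies on exons of Chpt1, and 43.0% of its windows occur in other genes. Nanos2, needed in male germ cells, had 1 read. Smc1b and Stag3, cohesin subunits of meiosis, had 5998 and 2116 reads. Of the endothelial markers Pecam1 (2445 reads, 8.18 RPKM) and Tek (1788 reads) stood above the rest, whereas Cdh5, which encodes VE-cadherin, had 3 reads and Tie1 had 1.

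Genes of blood and of adult organs had low medians, of 0.0238 and 0.0323 RPKM, and none was abundant. Of 16 blood and immune markers 6 were moderate, 6 low and 4 silent, and they took 408 reads in all, or 5.64 CPM. The haemoglobin genes Hba-a1, Hba-a2, Hbb-bs and Hbb-bt had 0 reads, with 53.2% to 89.3% of their 50-base windows found in other genes too. Ptprc, which encodes the leukocyte antigen CD45, had 6, Cd3e of T cells 7, and Adgre1 of macrophages 1. Gata1, a factor of red cells, was the highest with 130 reads (0.945 RPKM), followed by Cd8a of T cells with 119 reads (0.525 RPKM). Of 32 markers of adult tissues, which took 1049 reads, 13 were moderate, 10 low and 9 silent, among them the hormone genes Ins1, Ins2 and Gcg. Of 6 liver genes 4 were moderate, with Cyp2e1, an oxidase of the P450 family, at 211 reads (1.59 RPKM) and Ahsg at 88, while Alb, which encodes albumin, had 2 reads. Of 6 muscle genes 4 were moderate, with the myosin genes Myh6 and Myh7 at 112 and 62 reads and Tnnt2, a troponin, at 68, while Ckm had 2 reads and Mb 1. The 4 testis genes had 7 reads together. The highest per length was Acta1, skeletal muscle actin, with 194 reads (1.85 RPKM).

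Genes of basic cell functions filled the top of the library. The 85 genes of cytosolic ribosomal proteins took 10.8% of all reads, with 78 abundant and a median of 1191 RPKM. The 17 translation factors took 29121 CPM, of which Eef1a1 alone took 14303, and Eif4a1 was at 1683 RPKM, Eef1g at 1012 RPKM and Eef2 at 801 RPKM. Eef1a2, the form of the elongation factor found in muscle and neurons, had 11 reads. Chaperones took 26924 CPM, with 16 of 19 abundant. All 8 genes of the CCT complex, which folds actin and tubulin, were abundant, from Cct5 with 639 RPKM to Cct4 with 238 RPKM. The 3 moderate ones were Hspa1a, Hspa1b and Hspa1l, which heat or stress can induce, with 52 to 254 reads. Of the aminoacyl-tRNA synthetases 18 of 20, of the hnRNPs 16 of 20, of the MCM proteins that open replication origins 8 of 10, and of the proteasome subunits 30 of 40 were abundant. Of the 77 mitochondrial ribosomal proteins 10 were abundant and 67 moderate, with a median of 32.3 RPKM.

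Glycolysis enzymes took 6942 CPM. Pgk1, which makes ATP from bisphosphoglycerate, was at 1071 RPKM, Gapdh at 573 RPKM, Pkm at 432 RPKM, Aldoa at 306 RPKM and Ldha at 285 RPKM. Hexokinase was mainly Hk2 (41457 reads, 102 RPKM), while Hk1 had 1198 reads (3.41 RPKM). The enolase gene Eno1 had 3 reads and its copy Eno1b, with 85.2% of its windows in other genes, had 12397. The split between these copies is uncertain, and another enolase gene, Eno2 of neurons, had 282. Among genes used as reference in RT-PCR the level per length ran from Rplp0 at 2233 RPKM to Gusb at 7.91 RPKM and Tbp at 2.83 RPKM.

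Of 29 genes of the cell cycle 11 were abundant and 18 moderate. Ccnb1, the cyclin of mitosis, was at 330 RPKM (59347 reads), Top2a, which untangles DNA, at 220 RPKM, Cdk4 at 133 RPKM, Ccna2 at 80.4 RPKM and Ccne1 at 67.9 RPKM. All 9 cyclin-dependent kinase inhibitors and tumour suppressors of the list were moderate and took 136 CPM together. Cdkn2a was the highest of these with 1650 reads (19.5 RPKM), and Cdkn1a was at 6.09 RPKM. Of the replication-dependent histone genes 9 of 68 were abundant, 49 moderate and 10 silent. The highest, Hist2h2bb, had 81513 reads, and every 50-base window of it occurs in another gene as well.

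Of 33 nucleoporin genes 20 were abundant and 13 moderate, with a median of 39.0 RPKM. Sec13 was the highest with 204 RPKM and Nup210l the lowest with 0.829 RPKM. In the nuclear basket, the part that faces the chromatin, Tpr was at 88.4 RPKM, Nup153 at 63.1 RPKM (95% interval 62.3 to 63.8) and Nup50 at 20.4 RPKM. Ctcf, which encodes the insulator protein, had 21045 reads (76.9 RPKM), and its germ line relative Ctcfl had 48. Of the cohesin ring, Smc1a had 38164 reads (112 RPKM), Smc3 27234 (77.6 RPKM) and Rad21 11849 (41.4 RPKM). Stag2 was at 45.4 RPKM and Stag1 at 29.01 RPKM. The meiotic kleisins Rec8 and Rad21l had 78 and 4 reads. The cohesin release factor Wapl, listed as Wapal, was at 62.8 RPKM and the loader gene Nipbl at 13.3 RPKM.

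PRC2, which methylates lysine 27 of histone H3, had 7 of 10 genes abundant. The highest per length was Rbbp7 at 246 RPKM. Eed was at 114 RPKM, Mtf2 at 100.1 RPKM, Jarid2 at 62.3 RPKM, Ezh2 at 61.3 RPKM and Suz12 at 55.5 RPKM. The second methyltransferase Ezh1 was at 3.22 RPKM. Of the PRC1 genes 3 of 18 were abundant. The ubiquitin ligase gene Rnf2 was at 44.7 RPKM and its relative Ring1 at 2.91 RPKM, and of the chromobox genes Cbx7 was at 3.73 RPKM and Cbx8 at 0.363 RPKM. For DNA methylation, Uhrf1 was at 54.3 RPKM, Dnmt3l at 52.2 RPKM, Dnmt1 at 51.8 RPKM, Dnmt3b at 29.5 RPKM and Dnmt3a at 6.67 RPKM. The 5-methylcytosine oxidases Tet1 (45729 reads, 44.0 RPKM) and Tet2 (17764 reads, 26.7 RPKM) stood above Tet3 (418 reads, 0.492 RPKM).

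Noncoding genes were mostly in the lower classes. Of 2064 long noncoding RNA genes 25 were abundant, 846 moderate, 639 low and 554 silent, and they took 1.75% of reads. By reads, after Malat1 came 4930470H14Rik (68422 reads), H19 (64698 reads, 391 RPKM), Gas5 (43448 reads, 706 RPKM) and Kcnq1ot1 (40796 reads, 6.06 RPKM). Lincenc1, a long noncoding RNA named for its expression in ES cells, had 4441 reads (22.2 RPKM), while Hotair of the HOXC cluster had 24 and Hottip of the HOXA cluster 2. Of 120 snoRNA genes, whose RNAs guide changes to ribosomal RNA, 102 were moderate and 14 silent. Snord34 (1374 RPKM), Snora78 (889 RPKM) and Snora74a (832 RPKM) were high per length. Their annotated exons are short, at 70, 128 and 196 bases, and fall under the length limit of the RPKM ranking above. Of the windows of Snora74a 100% occur in other genes, and of those of Snord34 and Snora78 0%. What the short length adds to these levels was not tested. Terc, the RNA of telomerase, had 3252 reads (106 RPKM).

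Among 1186 microRNA genes, 703 were silent, 358 low, 124 moderate and 1, Mir703, abundant with 8969 reads. The library was made from total RNA with 50-base reads, which count the hairpin or its host transcript and do not measure the mature forms, which are at most 27 bases long. The mature sequences are given to show which clusters of ES cells share a seed, from RefSeq in build GRCm38.p6, with bases 2 to 8 in capitals. The miR-290 cluster lies at chr7:3218674-3220837 from its first to its last mature form shown. The miR-302 cluster is on chromosome 3 and the miR-17 cluster on chromosome 14. All these clusters are on the plus strand.
mmu-miR-291a-3p: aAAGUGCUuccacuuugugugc
mmu-miR-294-3p: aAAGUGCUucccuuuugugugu
mmu-miR-295-3p: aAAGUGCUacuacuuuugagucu
mmu-miR-302b-3p: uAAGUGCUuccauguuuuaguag
mmu-miR-302d-3p: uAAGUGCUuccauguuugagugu
mmu-miR-290a-3p: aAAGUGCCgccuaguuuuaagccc
mmu-miR-17-5p: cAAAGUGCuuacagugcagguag
mmu-miR-20a-5p: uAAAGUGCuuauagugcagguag
The first 5 share the seed AAGUGCU across both ES cell clusters, and the last 2 share AAAGUGC. At the hairpins, Mir290a had 298 reads and Mir291a, Mir291b, Mir292, Mir293, Mir294 and Mir295 had 0. Mir302a had 7 reads, Mir302b and Mir302c 5 each and Mir302d 10. Of the miR-17 cluster, whose members act on the cell cycle, Mir20a had 327, Mir19a 162, Mir17 113, Mir19b-1 18 and Mir92-1 0, and the host transcript Mir17hg had 6656. All bases of Mir20a and Mir92-1 lie on annotated exons of Mir17hg. Mir6516 had 6118 reads and lies within Snhg20. The part of such overlaps in the counts was not tested.

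Imprinted genes, which are read from 1 parental copy, were spread over all classes, with 7 abundant, 20 moderate, 2 low and 1 silent of 30. H19 was the highest at 391 RPKM. Its neighbour Igf2, which encodes a growth factor, had 10646 reads (28.0 RPKM), and Igf2r, the receptor that clears it, had 23626 (36.7 RPKM). Impact was at 125 RPKM. In the Dlk1 to Meg3 region Rian had 19568 reads (18.8 RPKM), Meg3 1967 (1.73 RPKM) and Dlk1 22 (0.0636 RPKM). Snrpn had 2 reads and Snurf, which lies within it, 0. Of the Snrpn exon 10.005% lies on exons of Snurf, and 26.5% of its windows occur in other genes. The part of this overlap in the counts was not tested. Kcnq1 had 0 reads, where Kcnq1ot1, which is transcribed across it from the other strand, had 40796.

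The 39 Hox genes, which set position along the body axis and are known as targets of Polycomb in ES cells, had few reads in most cases. None was abundant, 26 were moderate, 12 low and 1, Hoxb1, silent, and the median was 0.149 RPKM. The HoxD cluster had 1844 reads, of which Hoxd13 took 1304 (7.26 RPKM). HoxA had 1080, led by Hoxa10 with 410 (1.80 RPKM), HoxC had 204 and HoxB 116. Both leading genes lie toward the posterior end of their clusters. Among the other families of developmental factors, Sox2 was the only abundant gene of 19 Sox genes, and Mga, with 40596 reads, the only one of 17 T-box genes. Of 46 forkhead genes only Foxn2 was abundant. All 9 Pax genes were under 0.55 RPKM. Rhox5, a homeobox gene of the X chromosome, had 8652 reads (189 RPKM), while 21 of the 31 Rhox genes had fewer than 10.

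The silent class was led by genes of the senses. Olfactory receptors were silent in 987 of 1125 cases, or 87.7%, vomeronasal receptors in 274 of 331 and taste and trace amine receptors in 46 of 53. Together these made up 28.4% of all silent genes and 40.8% of the 3153 silent protein-coding genes. Keratin-associated proteins of hair were silent in 49 of 53 cases, Ly49 receptors of natural killer cells in 18 of 20, late cornified envelope proteins of skin in 31 of 37, defensins in 47 of 61, interferon genes in 15 of 21 and prolactins in 18 of 27. Keratins were divided, with 16 moderate, 19 low and 17 silent, and Krt42 (714 reads), Krt17 (495 reads) and Krt8 (478 reads) had the most reads. Of the cytochrome P450 genes 40 of 105 were silent, and Cyp51, which acts in the synthesis of cholesterol, was the only abundant one with 9685 reads. Potassium channels (7 of 92) and GABA and glutamate receptors (2 of 47) were rarely silent, but their medians were 0.0655 and 0.0235 RPKM.

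A few receptors had many reads where the neighbouring receptors had few or none. Olfr856-ps1, a transcribed pseudogene, had 8902 reads (130 RPKM). It lies 7296 bases from Zfp317, which had 7388 reads, while the nearest receptors Olfr857 and Olfr855 had 0 and 4. Olfr613 had 3945 reads (10.4 RPKM) between Olfr612 and Olfr615 with 0 each. Vmn1r58 had 1827 reads beside Vmn1r59 with 0, and Vmn2r55 had 476 reads beside Vmn2r54 and Vmn2r56 with 0, and Zscan18, at a distance of 83099 bases, had 1726. Olfr985 and Olfr986 had 297 and 137 reads. Whether these reads begin at the receptors' own promoters was not tested.

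Silent genes lay side by side. In the order of protein-coding genes along the chromosomes, 52 runs of 10 or more silent neighbours held 1063 genes, or 33.7% of silent protein-coding genes. The longest run, at chr2:87809822-89930746, held 90 genes from Olfr1145 to Olfr1258, all of them olfactory receptors. The next, at chr7:20101158-23275243, held 77 genes of which 49 were vomeronasal receptors, and its median gene shares 100% of its 50-base windows with other genes. Further runs of 55 and 48 olfactory receptors lay at chr2:86228010-87458111 and chr10:128989914-129946060. A run of 35 genes on the Y chromosome spanned 83.4 Mb, and its median gene shares 97.9% of its 50-base windows with other genes. A run of 31 on chromosome 6 held 24 taste receptors, and a run of 24 on chromosome 16 held 19 keratin-associated proteins. Coordinates are in GRCm38.

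The share of silent genes was highest on the Y chromosome, with 42 of 48 genes, and followed by chromosome 7 (29.4%), chromosome 2 (25.3%) and the X chromosome (22.7%). Without sensory receptors the shares of chromosomes 7 and 2 were 16.7% and 14.1%, and that of the X chromosome was 22.4%. Protein-coding genes with at least 10 reads had a median of 4.54 RPKM on the X chromosome (600 genes) and 3.82 RPKM on the autosomes (14437 genes). Single autosomes ranged from 2.50 RPKM on chromosome 7 to 5.69 RPKM on chromosome 13, so the X chromosome lay within the range of the autosomes.

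A count of 0 does not always describe the gene. Reads of 50 bases that match more than 1 place could be lost, and 15.3% of silent genes had at least 80% of their 50-base windows in common with another gene, against 3.29% of low, 1.46% of moderate and 0.608% of abundant genes. All 10 silent histone genes, Hist1h2ap and Hist2h2aa1 among them, had at least 63.5% of such windows, the share of Hist2h3c2. Some genes of families that were otherwise abundant had few reads without such a degree of overlap. Rpl26, a gene of the ribosome, had 0 reads with 22.7% of windows shared, Rpl34 80 reads with 7.78% and Rpl30 74 reads with 28.7%. Ndufs5 of complex I had 0 reads with 21.7% and Tdg, the DNA glycosylase, 8 reads with 41.2%. What the share of repeated windows contributes to these counts was not tested.

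The depth set the border between low and silent. Keeping 20000000 of the gene reads at random would leave a mean of 18383 genes with a read, 40000000 would leave 19202, and the whole library had 19816. At the full depth the last 1000000 reads added 13.4 genes on average. The abundant limit is in CPM and scales with the reads kept, so the size of this class could hardly change with depth. Its mean was 2156 genes at 1000000 reads, and it held 2142 in the whole library.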

How the data were processed

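Total RNA of 1 control culture was depleted of ribosomal RNA and sequenced as 50-base single reads. Per the labels and methods, the authors trimmed the reads with Trim Galore 0.4.1, mapped them with TopHat2 2.1.1 to mm10 (GRCm38) and deposited whole-number counts of reads for each gene, not normalized. The labels name HTSeq and the methods featureCounts on reads of high mapping quality, and the strand setting is not given in the sources used here. Reads counted on no gene (21.8%) or as ambiguous (1.65%) were left out of all totals. No spike-in row was in the table.

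Here CPM was computed from the reads on genes and RPKM from the union of GENCODE M21 exons, with lengths for 24042 genes. Symbols matched RefSeq for 23204 genes, 1096 matched an older symbol, 26 matched GENCODE alone and 95 had no match. Promoters were found for 18115 genes. The share of 50-base windows in common with other genes was computed on annotated transcripts. Intervals of 95% were exact Clopper-Pearson for shares of reads and exact Poisson for reads, and a count of 0 was given a limit of 3 reads. With 1 library no test was made, and overlapping genes could not be separated. Scripts were tested on simulated data.

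The gene lists (32, with 651 of 663 genes found) and 50 families were chosen with earlier results of these data known. Genes named in the text were the 20 with most reads, up to 6 highest and the lowest of each list, the defining markers of ES cells and fibroblasts, Nup153, Ctcf and cohesin genes, genes in another class than most of their list, and the longest runs of silent genes. Others were chosen after their values were seen. Python 3.11.15, numpy 2.4.6, pandas 2.3.3, scipy 1.17.1 and matplotlib 3.10.9 were used. Alternatives were other class limits, denominators, a smaller depth and subsets of genes.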

Additional observations from a re-analysis of the deposited data

Results flagged for a closer look

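Reads outside the gene counts were not used in the description above. Of all counted reads, 21.8% (95% interval 21.84 to 21.85) fell on no gene, and 1.65% were ambiguous between genes. They are listed because they are signal outside the measurement that was described. What these reads are was not tested.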

How the results depend on the processing

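No paired analysis was possible because each condition has 1 library, and leaving out a replicate could not be run for the same reason. The numbers of silent, low and moderate genes stayed within 1.5 times the reported ones at a depth of 20000000 gene reads, with protein-coding genes only and with overlapping genes removed, as did low and moderate genes under other limits of the low class and moderate genes under both other denominators. The same held for silent, low and moderate genes without genes of 80% or more shared windows or overlapped exons, an alternative chosen after seeing the data, which left 3761 silent genes. At a smaller depth the limit of the abundant class, set in CPM, scales too, so its size could hardly change. The abundant class ran from 1607 to 2291 genes under the other denominators, depth and subsets. It changed with its limit, to 3836 genes from 50 CPM and 961 from 200 CPM. The share of reads moved likewise, to 86.4% and 57.9% for abundant and to 13.5% and 42.0% for moderate genes. Without the 10 highest genes the shares were 72.7% abundant, 27.3% moderate and 0.0182% low. With those genes out of the denominator, summed levels were 3763 CPM for pluripotency factors, 6749 CPM for fibroblast markers, 108 CPM for endoderm, 23.1 CPM for mesoderm, 266 CPM for neural and 91.7 CPM for trophoblast markers. In TPM, which rescales all genes alike, the medians of these 6 lists were 35.7, 21.6, 0.243, 0.466, 0.0613 and 0.593. With members of at least 10 reads only, the medians of endoderm, mesoderm, neural and trophoblast markers were 0.197, 0.425, 0.267 and 0.932 RPKM. Depth limits the silent class, since the exact Poisson interval of 0 reads runs up to 0.0510 CPM. Feeder RNA and the strand of counting were not separated.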
